A study of Mus musculus with 8 samples.

Results

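The genes described here encode the machinery that copies nuclear DNA and the enzymes that supply its building blocks. They were taken by name from a fixed list of 29 genes, all of which were found among the 52224 genes of the deposited table. There were 12 subunits of the replicative polymerases, 6 genes of the sliding clamp and its loader, 6 genes of single-strand cover and lagging-strand maturation, and 5 genes of deoxynucleotide supply. They were chosen by name and not by a limit on any measured value.

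The values come from RNA sequencing of hematopoietic stem cells of mouse bone marrow, sorted as CD48-, CD150+ cells of the LSK fraction (lineage-negative, Sca-1+, Kit+). There were 4 libraries of genotype DekCon and 4 of genotype DekTg, and the labels give both as genotype and as treatment. Dek encodes a chromatin-associated protein that the series title links to replication stress and to Fanconi anemia, a hereditary disorder in which DNA crosslinks are not repaired. The labels spell out neither genotype name and give no age, strain, promoter or number of pooled mice, so what DekTg changes, and in which cells, is not given in the sources used here.

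Chromosome copying starts with polymerase alpha and primase, which lay down a short RNA-DNA primer. Replication factor C, the clamp loader, then closes a ring of PCNA around the DNA at the primer, and PCNA tethers polymerase delta on the lagging strand, while polymerase epsilon copies the leading strand. Replication protein A covers exposed single strands, FEN1, DNA2 and DNA ligase 1 trim and join the Okazaki fragments, and ribonucleotide reductase, thymidylate synthase, thymidine kinase 1 and dUTPase supply and clean the deoxynucleotide pool. In bone marrow most stem cells are quiescent, and transcripts of these genes are abundant mainly in cells that are cycling. In bulk RNA of a sorted population, fewer cycling cells and less RNA per cycling cell cannot be told apart.

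Libraries held 2525884 to 4101132 reads, and each of the 29 genes had at least 22 reads in every library. Values are given as normalized read counts, which are gene counts divided by a size factor for each library. Dek was listed at 395 to 632 in DekCon and at 1862 to 2710 in DekTg (log2 fold change 2.23, SE 0.16, limma adjusted p = 1.14e-06), but 4 of its values are not whole reads, so the size of this difference is not a read count. None of the 29 genes held such a value. The sorting markers Kit and Slamf1, which encodes CD150, were present in every library, with Kit at 1072 to 1557. Slamf1 did not overlap between the genotypes, at 228 to 300 in DekCon and 190 to 212 in DekTg, with a log2 difference of -0.40 (limma adjusted p = 0.711) and -0.41 without DekCon 2. Over 11 stem cell and sorting genes the summed level was 5075 to 7363 in DekCon and 6184 to 7203 in DekTg. None of the 11 passed the threshold (limma) and 3 had an unadjusted p under 0.05, against 6.93% of all genes tested. Transcripts of Cd48, whose protein was selected against, were also present, at 128 to 259. Libraries 1 and 4 of each genotype resembled each other more than any other pair of the same genotype. Their mean chi-square per gene was 1.58 in DekCon and 1.67 in DekTg, against 3.62 to 7.83 for the other pairs, where sampling noise alone gives about 1. Libraries also differed within a genotype. In DekCon 2 the count of Dntt, the template-independent polymerase of lymphoid cells, was 4.79 against 323 to 869 elsewhere, and that of Cd34, a surface marker of progenitor cells, was 624 against 1109 to 2265. DekTg 3 stood out in neutrophil genes, whose summed level was 16370 there and 2166 to 4705 in the other DekTg libraries. Differences of the 29 genes are given below with all libraries and without DekCon 2, which held the highest value of most of them.

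Per kilobase of exon, the 29 genes spanned an 8.43-fold range, and Pcna was the most abundant. Its level was 206 ± 48 in DekCon and 177 ± 39 in DekTg (normalized read count per kilobase, SD, n = 4 each). Next came Fen1, the flap nuclease, at 156 ± 48 and 120 ± 18, the loader subunit Rfc2 at 151 ± 28 and 119 ± 10, and Tyms, thymidylate synthase, at 136 ± 37 and 109 ± 14. Among the polymerase subunits Pold2, the second subunit of polymerase delta, was highest, at 118 ± 24 in DekCon and 81.1 ± 22.5 in DekTg per kilobase. At the low end were Pole, the catalytic subunit of polymerase epsilon, at 24.5 ± 4.9 and 20.95 ± 1.008, and its partner Pole2 at 24.0 ± 6.1 and 23.2 ± 9.9. Of the 28 pairs of neighbours in this order, 1 differed by more than the larger spread of its genes over the 8 libraries (SD of log2 values), the pair Pcna and Fen1. The order is otherwise not resolved between neighbours, and this spread is that among libraries and does not cover the choice of exon lengths.

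**Figure D1:**
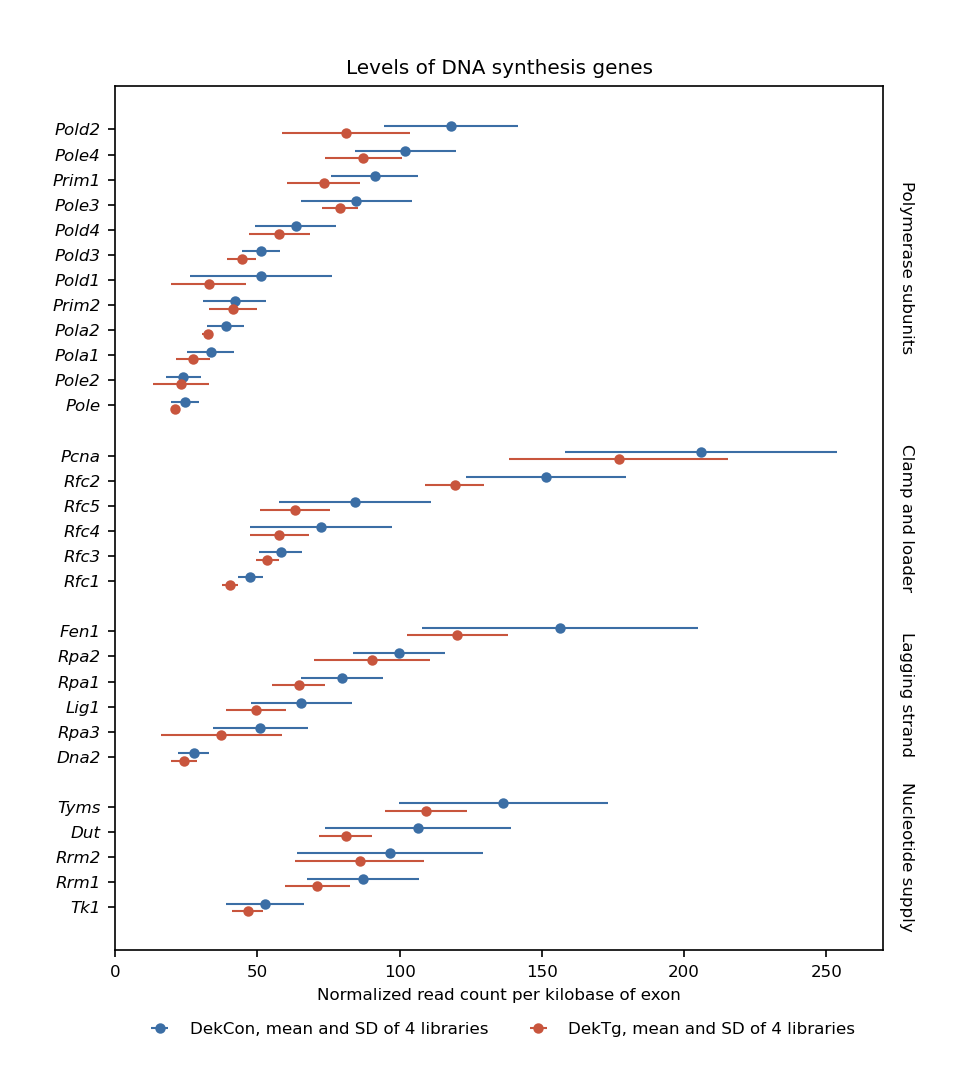
Normalized read count per kilobase of exon (x axis) of the 29 genes (y axis, grouped by role), with points for the mean and bars for the SD of 4 libraries, DekCon in blue and DekTg in red. Pcna is highest, at 206 in DekCon and 177 in DekTg, and the bars of most neighbouring genes overlap.

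Subunits of the same enzyme were not equally abundant per kilobase. For polymerase alpha and primase, the catalytic primase subunit Prim1 had 91.2 ± 15.4 in DekCon, while Prim2, Pola2 and Pola1 had 42.0 ± 11.0, 38.9 ± 6.5 and 33.5 ± 8.2 (SD, n = 4 each). For polymerase epsilon, the histone-fold subunits Pole4 and Pole3 had 101.9 ± 17.8 and 84.8 ± 19.4, against 24.5 ± 4.9 for Pole. Of ribonucleotide reductase, the large subunit Rrm1 had 87.0 ± 19.8 and the S-phase small subunit Rrm2 had 96.7 ± 32.7 in DekCon. Exon lengths join all annotated transcripts of a gene, so a long rare transcript lowers a value per kilobase. Before division by length, Pole had 273 ± 54 in DekCon, against 256 ± 45 for Pole4 and 173 ± 40 for Pole3. The low place of Pole thus rests on its length, while Prim1 was the highest of its enzyme either way, at 353 ± 60.

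Many replication genes are known targets of E2F factors, which switch on S-phase genes, so the bases before the start sites were searched for E2F-type motifs. The RefSeq promoter table of GRCm38.p6 held 26 of the 29 genes. The short E2F core was spelled TTCGCG or else TTGGCG or else TTCCCG or else TTGCCG, on either strand with overlaps allowed. It lay within 250 bases before a start in 17 of the 26, or 65.4%, against 23.2% of all 27025 genes in the table and 28.9% of those tested here. The full E2F motif, which contains the core, was spelled TTTCCCGC or else TTTCGCGC or else TTTGCCGC or else TTTGGCGC. It lay in 3 of the 26, or 11.5%, against 2.16% of all genes, in Pola1, Pole4 and Rfc3. The CCAAT box lay in 46.2% against 37.5%. The cell cycle genes homology region (spelled TTTGAA or else TTCGAA) lay in 11.5% against 19.6%. The members' windows were also richer in G and C, with a median of 63.6% against 52.4% over all windows, and the share of matches was not adjusted for that. These are matches of letters in a window and not measured binding. The stretches below show the core matches that lie outside annotated exons for 5 genes, none of the clamp or its loader. The genes are the polymerase subunits Pold2 and Pola1, the replication protein A subunits Rpa2 and Rpa3, and Rrm1. The stretches read 5′ to 3′ on the gene's strand, with the core matches in capitals.
Pold2, chr11:5878324-5878389, minus strand: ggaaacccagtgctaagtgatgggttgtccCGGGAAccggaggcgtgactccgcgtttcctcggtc
Pola1, chrX:93632240-93632354, minus strand: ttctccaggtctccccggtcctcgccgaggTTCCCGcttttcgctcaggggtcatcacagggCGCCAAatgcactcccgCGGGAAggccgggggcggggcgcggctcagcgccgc
Rpa2, chr4:132768290-132768331, plus strand: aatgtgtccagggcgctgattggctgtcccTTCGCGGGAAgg
Rpa3, chr6:8259174-8259217, minus strand: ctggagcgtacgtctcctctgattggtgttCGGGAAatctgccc
Rrm1, chr7:102441598-102441663, plus strand: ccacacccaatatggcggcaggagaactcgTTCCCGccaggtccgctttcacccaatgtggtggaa
Pola1 carried 3 core matches, Rpa2 carried 2 that overlap, and the other 3 stretches carried 1 each.

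The comparison of DekTg with DekCon asks whether the transcripts of this machinery differ between stem cells of the genotypes. All 29 genes had a lower mean log2 value in DekTg than in DekCon at the deposited scaling (27 of 29 with equal sums or quantile normalization), and none passed the test. The median log2 fold change was -0.24 and the range ran from -0.65 for Pold1 to -0.01 for Prim2. Over all genes tested, 0.0347% passed the threshold (limma, Benjamini-Hochberg adjusted p under 0.05, 13 of 37414), 0.0267% higher and 0.00802% lower in DekTg. That balance varied, since 10 were higher and 3 lower, while DESeq2 called 4 higher and 10 lower and limma without DekTg 2 called 10 higher and 12 lower. With limma, 0.0214% passed without the genes holding values that are not whole. Among the 29 the smallest limma adjusted p was 0.711. EdgeR called none and DESeq2 called none. At an unadjusted p under 0.05, limma marked 3 of the 29 (10.3%), Pold2, Rfc2 and Pold1. Over all genes tested that share was 6.93%, or 3.78% for genes lower in DekTg. The 7602 genes with a mean normalized read count of at least 100 are a band chosen after the values were seen. Of them 9.58% had such a p and were lower in DekTg. EdgeR marked 7 of the 29 at an unadjusted p under 0.05 and DESeq2 4, against 3.62% and 2.81% of all genes lower in DekTg. With the replicate number as a block limma marked 11 (all genes 4.32%), with a term for libraries 1 and 4 it marked 13 (4.74%), and without DekTg 2 it marked 13 (4.86%). With libraries 1 and 4 averaged it marked 2, and with quantile normalization, without limma's trend and without DekCon 2 it marked 1 each. None passed the threshold in any of these. For these other settings the share over the 7602 genes was not computed.

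A position below 0 was also common among other well-expressed genes. Of those 7602 genes, 71.0% had a log2 fold change below 0, with a median of -0.10, while 49.4% of all genes tested lay below 0, with a median of 0.01. With quantile normalization the median of the 7602 moved to 0.00 and that of the 29 to -0.14, with Prim2 and Pole3 above 0. With library sums made equal, the medians were -0.01 and -0.16, again with Prim2 and Pole3 above 0.

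The difference was smaller without DekCon 2. That library held the highest value of 27 of the 29 genes, a position it held for 16.8% of all genes tested and 38.5% of the 7602. Its value was 1.10 to 2.28 times the mean of the other 3 DekCon libraries, with a median of 1.45 times. At the other end, DekTg 1 or DekTg 4, which resemble each other, held the lowest value of 22 of the 29. Without DekCon 2 the median log2 fold change of the 29 was -0.14, and 24 of the 29 stayed below 0. Those above 0 were then Prim2, Pole2, Pole3, Rrm2 and Tk1, none of them past the threshold. Libraries 1 and 4 alone gave a median of -0.23 with 26 of 29 below 0, where the 7602 genes had a median of -0.12. Libraries 2 and 3 alone, which include DekCon 2, gave -0.28 with 28 of 29 below 0, where the 7602 genes had -0.06. The split follows the likeness of libraries 1 and 4 in these same data, and neither part was tested.

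**Figure D2:**
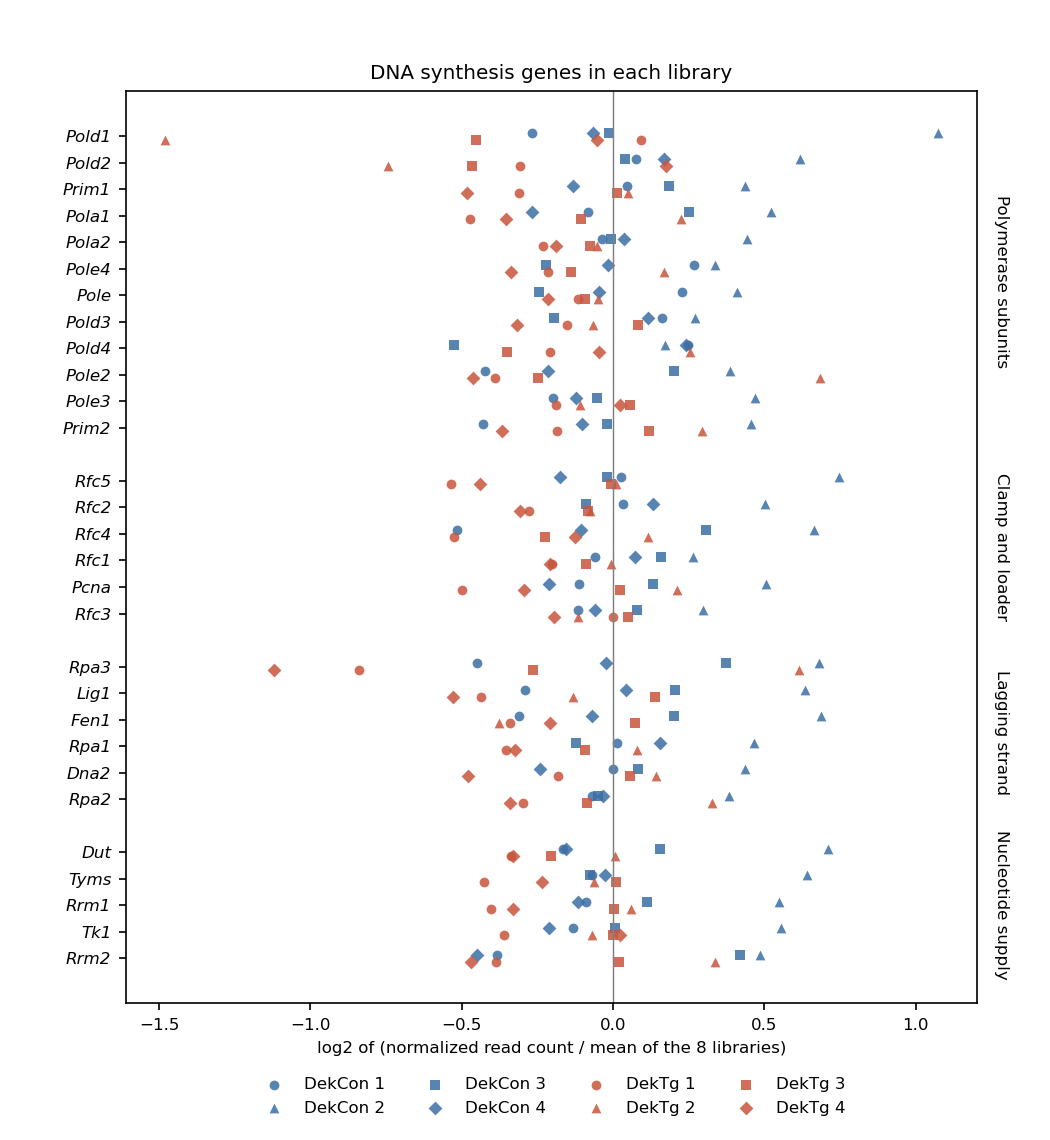
Log2 of each library's normalized read count over the gene's mean of the 8 libraries (x axis) for the 29 genes (y axis), DekCon in blue and DekTg in red, with a marker shape for each replicate number. The blue triangles of DekCon 2 lie farthest right for 27 of the 29 genes, and the genotypes overlap for all but Pola2.

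Of polymerase delta, the enzyme of the lagging strand, 4 subunits were measured. Pold2 had the smallest p of the 29 genes. It was read at 199, 290, 194 and 212 in DekCon libraries 1 to 4 and at 152, 113, 137 and 213 in DekTg libraries 1 to 4. Thus 3 of 4 DekTg libraries lay below every DekCon library, and DekTg 4 lay among them. On the log2 scale the difference was -0.56 (SE 0.18, limma adjusted p = 0.711), and -0.43 without DekCon 2. The gene spans chr11:5872180-5878292, minus strand (GRCm38, GENCODE M21). Pold1, the catalytic subunit, was read at 170, 431, 203 and 195 in DekCon and at 218, 73.3, 149 and 197 in DekTg. The highest value was that of DekCon 2 and the lowest that of DekTg 2, and the other 6 libraries, at 149 to 218, mixed the genotypes. On the log2 scale the difference was -0.65 (SE 0.30, limma adjusted p = 0.713), and -0.35 without DekCon 2. The accessory subunits Pold3, which binds PCNA, and Pold4, the smallest subunit, had -0.20 (limma adjusted p = 0.795) and -0.12 (0.921), and -0.14 and -0.08 without DekCon 2. Pold4 was lowest in DekCon 3, at 49.0 against 79.4 to 83.7 in the other DekCon libraries.

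Polymerase alpha and primase hold the 1 gene whose genotypes did not overlap. Pola2, the regulatory subunit of polymerase alpha, was read at 289, 403, 295 and 304 in DekCon and at 252, 286, 281 and 260 in DekTg. All 4 DekTg values lay below all 4 DekCon values, with 286 and 289 as the nearest pair. On the log2 scale the difference was -0.24 (SE 0.13, limma adjusted p = 0.746), and -0.13 without DekCon 2. That is 1 of 29 genes, or 3.45%, and over all genes tested 1.88% were lower and 2.09% higher in DekTg without overlap, and 4.42% of the 7602 well-expressed genes were lower. The gene spans chr19:5940542-5964202, minus strand. Prim1 was read at 328, 431, 362 and 290 in DekCon and at 256, 329, 321 and 228 in DekTg. DekTg 1 and 4 lay below all DekCon libraries and DekTg 2 and 3 among them (log2 fold change -0.32, SE 0.15, limma adjusted p = 0.717, and -0.21 without DekCon 2). The catalytic subunit Pola1 had -0.28 (limma adjusted p = 0.780), and -0.14 without DekCon 2. Prim2, which hands the primer over to polymerase alpha, was nearly level, with 249.6 ± 65.4 in DekCon against 245.6 ± 50.3 (n = 4 each, SD) and a 95% interval of the log2 fold change from -0.39 to 0.37. Without DekCon 2 its difference was 0.15.

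None of the 4 polymerase epsilon genes passed the test (limma, and none at an unadjusted p under 0.05). Pole, the leading-strand polymerase itself, had 273 ± 54 against 234 ± 11 (n = 4 each, SD), a log2 difference of -0.20 with a limma adjusted p = 0.798. Pole4 had -0.22 (limma adjusted p = 0.792), Pole2 had -0.09 (0.956) and Pole3 had -0.08 (0.936). Without DekCon 2 the values were -0.10 for Pole, -0.14 for Pole4, 0.04 for Pole2 and 0.07 for Pole3. The 95% interval of Pole2 ran from -0.61 to 0.43. Pole2 was highest in DekTg 2, at 109 against 49.3 to 57.3 in the other DekTg libraries. Over the 12 polymerase subunits the median log2 fold change was -0.21, and -0.14 without DekCon 2.

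The clamp, Pcna, was read at 425, 653, 503 and 397 in DekCon and at 326, 532, 467 and 375 in DekTg. DekTg 1 and 4 were lowest and DekCon 2 highest, and the rest were mixed. On the log2 scale the difference was -0.22 (SE 0.17, limma adjusted p = 0.819), and -0.07 without DekCon 2. The processed pseudogene Pcna-ps2 had its own reads, at a mean of 19.2 in DekCon and 15.3 in DekTg, so a few reads may be divided between the copies.

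The 5 loader subunits all lay lower in DekTg. Rfc2 was read at 872, 1207, 801 and 935 in DekCon and at 704, 810, 805 and 689 in DekTg. DekTg 1 and 4 lay below every DekCon library, while DekTg 2 and 3 lay just above DekCon 3. On the log2 scale the difference was -0.33 (SE 0.14, limma adjusted p = 0.711), and -0.21 without DekCon 2. The gene spans chr5:134581366-134601805, plus strand, and shares 15.1% of its exon length with Lat2 on the other strand. Lat2 went the other way, at 0.30 (limma adjusted p = 0.785), and whether the counting used strand is not given in the sources used here. Rfc5 was read at 351, 579, 340 and 306 in DekCon and at 238, 347, 344 and 254 in DekTg. DekCon 2 was far above the other 7 libraries, and DekTg 2 and 3 lay close to DekCon 1 and 3 (log2 fold change -0.39, SE 0.19, limma adjusted p = 0.717, and -0.19 without DekCon 2). The large subunit Rfc1 had -0.23 (limma adjusted p = 0.741), with 3 of 4 DekTg libraries below every DekCon library. Rfc4 had -0.27 (0.818) and Rfc3 had -0.11 (0.872). Without DekCon 2 these were -0.18 for Rfc1, -0.08 for Rfc4 and -0.03 for Rfc3. The clamp and loader genes together had a median log2 fold change of -0.25, and -0.13 without DekCon 2.

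**Figure D3:**
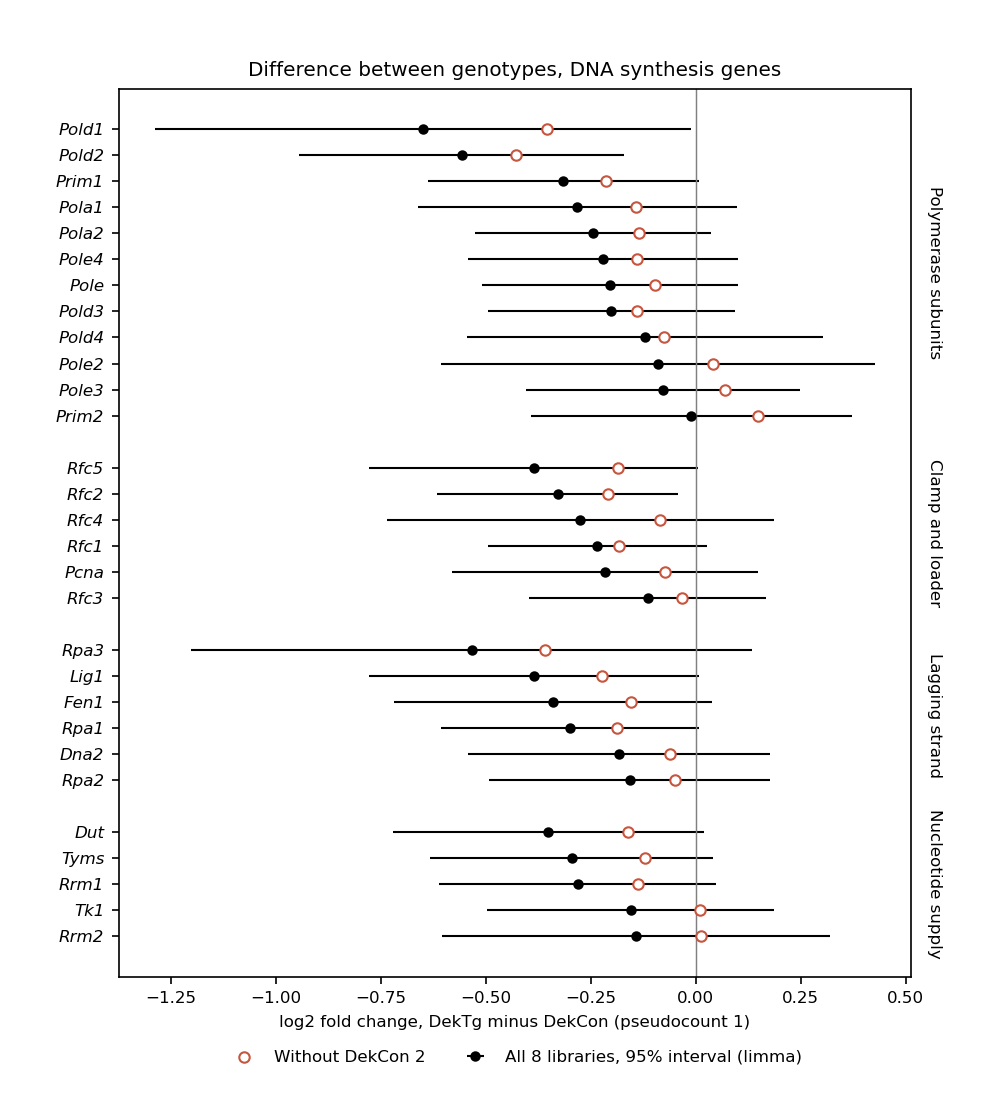
Log2 fold change of DekTg minus DekCon (x axis) for the 29 genes (y axis, by role), with black points and bars for the limma estimate and its 95% interval over 8 libraries, and open red circles for the estimate without DekCon 2. All black points lie below 0 at the deposited scaling (Prim2 and Pole3 turn above 0 with equal sums or quantile normalization), the intervals of Pold1, Pold2 and Rfc2 do not reach 0 before adjustment, and the open circles lie nearer to 0 or above it.

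Single-strand cover and lagging-strand maturation had the lowest median of the 4 groups, -0.32, and -0.17 without DekCon 2. Lig1, the ligase that seals Okazaki fragments, was read at 200, 381, 283 and 252 in DekCon and at 181, 223, 270 and 170 in DekTg. DekTg 1 and 4 lay below every DekCon library, and DekTg 2 and 3 lay between DekCon 1 and DekCon 3 (log2 fold change -0.39, SE 0.19, limma adjusted p = 0.717, and -0.22 without DekCon 2). Fen1 was read at 270, 540, 385 and 320 in DekCon and at 265, 258, 352 and 290 in DekTg. DekTg 1 and 2 lay just below DekCon 1, the lowest of the DekCon libraries (log2 fold change -0.34, SE 0.18, limma adjusted p = 0.741, and -0.15 without DekCon 2). Of the Fen1 exon length, 78.8% is shared with the antisense gene Gm10143, which had a mean of 124.5 in DekCon and 104.1 in DekTg, so without strand the reads of this pair cannot be told apart. Rpa1, the large subunit of replication protein A, was read at 406, 556, 369 and 448 in DekCon and at 315, 425, 378 and 321 in DekTg. DekTg 1 and 4 again lay below every DekCon library (log2 fold change -0.30, SE 0.15, limma adjusted p = 0.717, and -0.19 without DekCon 2). Rpa3, the smallest subunit and the least read of the 29 genes, had -0.53 with an SE of 0.32 (limma adjusted p = 0.763). Rpa2 had -0.16 (0.856), and Dna2, the nuclease and helicase that trims long flaps, had -0.18 (0.842). Without DekCon 2 these were -0.36 for Rpa3, -0.05 for Rpa2 and -0.06 for Dna2.

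The enzymes of nucleotide supply had a median log2 fold change of -0.28, and -0.12 without DekCon 2. Dut, which removes dUTP, was read at 202, 369, 252 and 203 in DekCon and at 179, 227, 196 and 180 in DekTg. In Dut 3 of 4 DekTg libraries lay below every DekCon library (log2 fold change -0.35, SE 0.18, limma adjusted p = 0.725, and -0.16 without DekCon 2). Tyms, which makes dTMP, was read at 712, 1166, 710 and 735 in DekCon and at 557, 716, 753 and 636 in DekTg. DekCon 2 was far above the rest, and DekTg 2 and 3 lay within or above the range of the other 3 DekCon libraries (log2 fold change -0.30, SE 0.16, limma adjusted p = 0.746, and -0.12 without DekCon 2). Rrm1 had 959 ± 218 in DekCon against 782 ± 125 (n = 4 each, SD; -0.28, limma adjusted p = 0.749). Rrm2, the subunit that is made in S phase, had 268 ± 91 and 238 ± 63 (-0.14, limma adjusted p = 0.916), and its alternative Rrm2b, a p53 target, had 170.1 ± 25.2 and 160.6 ± 20.1 (-0.08, limma adjusted p = 0.930). Tk1, the salvage kinase of thymidine, had -0.16 (limma adjusted p = 0.859). Without DekCon 2 the values were -0.14 for Rrm1, 0.01 for both Rrm2 and Tk1, and -0.14 for Rrm2b.

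These intervals leave room for differences in both directions. The half-width of the 95% interval of the log2 fold change had a median of 0.36 over the 29 genes, and the bounds ran from -1.29 for Pold1 to 0.43 for Pole2. Without adjustment the interval did not reach 0 for 3 genes, Pold1, Pold2 and Rfc2. The labels do not say that libraries come from separate mice, so a p-value here weighs a difference only against the variation among these libraries, part of which may be technical.

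Other genes of DNA synthesis gave 0 calls among 89 (limma, and 7 at an unadjusted p under 0.05; edgeR and DESeq2 called 0), and 73 of the 89 lay below 0 at the deposited scaling, with a median of -0.15 and -0.05 without DekCon 2. Over all genes tested 6.93% had an unadjusted p under 0.05 and 49.4% lay below 0, or 71.0% of the 7602 well-expressed genes. Of 20 PCNA partners and fork proteins, 18 lay below 0 (median -0.18), with the fork protection factor Timeless at -0.48 and the chromatin assembly subunit Chaf1b at -0.31 (limma adjusted p = 0.711 for both). Of 20 genes of de novo nucleotide synthesis, 16 lay below 0 (median -0.19), with the purine enzyme Pfas at -0.57 and the pyrimidine enzyme Umps at -0.35 (limma adjusted p = 0.711 for both). For 16 genes of deoxynucleotide salvage and control the median was -0.08, with Shmt1, which feeds thymidylate synthesis, at -0.33 (limma adjusted p = 0.718) and the dNTP hydrolase Samhd1 at -0.20 (0.783). Of 15 repair, translesion, mitochondrial and lymphoid polymerases, 10 lay below 0 (median -0.10). There Polq, the polymerase of microhomology-mediated joining, had -0.32 (limma adjusted p = 0.791), and Dntt had 2.14 (0.713), or 0.51 without DekCon 2. The 8 genes of alternative clamps and loaders had a median of -0.02, with Rad9a at -0.32 (limma adjusted p = 0.772) and Hus1 at 0.13 (0.865), both subunits of the checkpoint clamp. All 10 E2F and DP factor genes lay below 0 (median -0.19), with Tfdp1 at -0.36 (limma adjusted p = 0.717) and E2f4 at -0.31 (0.757). Without DekCon 2 the medians were -0.10 for the PCNA partners, -0.06 for de novo synthesis, -0.04 for salvage and control, -0.05 for the other polymerases, 0.05 for the alternative clamps and loaders and -0.08 for the E2F group. The named genes were then at -0.31 (Timeless), -0.24 (Chaf1b), -0.42 (Pfas), -0.22 (Umps), -0.19 (Shmt1), -0.22 (Samhd1), -0.17 (Polq), -0.11 (Rad9a), 0.21 (Hus1), -0.18 (Tfdp1) and -0.15 (E2f4).

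Markers of proliferation varied over the libraries much as the 29 genes did. Over 10 of them, Mki67, Top2a, Ccna2, Ccnb1, Ccnb2, Aurkb, Birc5, Plk1, Bub1 and Tpx2, none passed the test (limma), 3 had an unadjusted p under 0.05 and all 10 lay below 0 at the deposited scaling. Their median log2 fold change was -0.32, and -0.14 without DekCon 2. Their summed level was 2980, 6360, 4282 and 2947 in DekCon libraries 1 to 4 and 2743, 3933, 3506 and 2631 in DekTg libraries 1 to 4. DekCon 2 was highest for all 10, and libraries 1 and 4 were lowest in each genotype. Over all genes tested 6.93% had an unadjusted p under 0.05 (limma), 49.4% lay below 0 and 16.8% were highest in DekCon 2. Of the 7602 well-expressed genes 71.0% lay below 0 and 38.5% were highest in DekCon 2. The 29 genes had a median deviation of 0.52 in DekCon 2, 0.09 in DekCon 3 and 0.06 in DekTg 2, against -0.05 and -0.03 in DekCon 1 and 4, -0.06 in DekTg 3 and -0.29 in both DekTg 1 and 4 (log2, median over the 29 of the difference from each gene's mean). The share of the proliferation signal in the differences of the 29 genes was not tested.

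**Figure D4:**
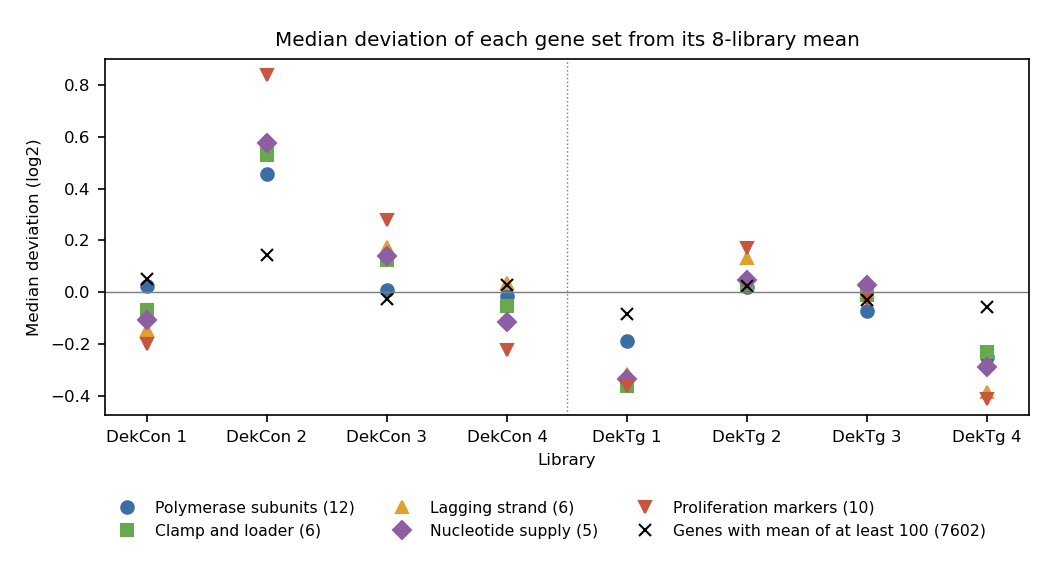
Median deviation (y axis, log2) of the 4 groups of DNA synthesis genes, of 10 proliferation markers and of 7602 genes with a mean of at least 100 from each gene's 8-library mean, for each library (x axis). All 4 groups and the proliferation markers are highest in DekCon 2 and lowest in DekTg 1 and DekTg 4. The 7602 genes are also highest in DekCon 2 (0.14) and lowest in DekTg 1 (-0.09) and DekTg 4 (-0.06), over a narrower range.

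Markers of other blood cells also differed between libraries. The summed level of 6 megakaryocyte genes was 9472 in DekCon 2, 2690 to 4835 in the other DekCon libraries and 2035 to 3422 in DekTg, with all 6 highest in DekCon 2 and none past the threshold (limma, 4 at an unadjusted p under 0.05). That of 9 erythroid genes was 161 to 446 in DekCon and 495 to 615 in DekTg. Of these 9, 3 were called higher, the globins Hba-a1, Hba-a2 and Hbb-bs (limma). An unadjusted p under 0.05 was found for 6, not all of them higher. For 10 B cell and plasma cell genes the summed level was 526 to 1323 in DekCon and 4635 to 5453 in DekTg. Igkc and Jchain were called higher (limma, 5 at an unadjusted p under 0.05). Over all these marker lists limma called 5 genes, edgeR 5, DESeq2 1, and DESeq2 without independent filtering 6. Sums ran from 3921 to 10110 in DekCon and 2166 to 16370 in DekTg for 8 neutrophil genes, from 620 to 3639 and 806 to 1256 for 6 mast cell, basophil and eosinophil genes, from 559 to 951 and 485 to 678 for 6 T and NK cell genes, and from 295 to 451 and 262 to 468 for 6 monocyte and macrophage genes. None of these 4 lists had a member past the threshold (limma, with 2, 2, 1 and 1 at an unadjusted p under 0.05), and no marker of any list was at 0 in all libraries. Over all genes tested 0.0347% passed the threshold and 6.93% had an unadjusted p under 0.05 (limma). DekCon 2 held the highest value of 16.8% of all genes tested and of 38.5% of the 7602 well-expressed genes. The part of these cells in the differences of the 29 genes was not tested.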

How the data were processed

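The submitters' processing notes name the build mm10 and the tools Bowtie (0.12.9), HTSeq, Cufflinks (2.1.1) and DESeq2, without role or order. Neither annotation nor strandedness of counting is stated in the sources used here. Per the labels' protocols, total RNA was extracted, amplified by the Geo-seq method and made into libraries with a tagmentation kit. The authors deposited 1 normalized signal for each gene in each library, under the name FPKM. Of 417792 values, 99.99% are whole multiples of 1 step per library (tolerance 0.001 reads), with the same step for genes of any length, so the values were read as gene counts divided by a size factor and not by length. The exceptions are 25 values in 6 genes, none of them described in detail except Dek. The table heads the control columns DenCon, read as DekCon.

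Genes with a value of at least 1 in at least 4 of 8 libraries were tested (37414). Log2(value + 1) was tested two-sided in limma 3.58.1 under R 4.3.3, letting the variance follow the mean. P-values were adjusted by Benjamini-Hochberg over the 37414 genes, and adjusted values under 0.05 were called. Fold changes on that scale understate the change of low genes. The planned log-scale test fits FPKM or counts divided by a size factor, and it was kept. EdgeR 4.0.16 (quasi-likelihood) and DESeq2 1.42.0 were run on the recovered reads without the 6 genes. The procedure was tested on simulated data. Exon lengths and positions are from GENCODE M21 (GRCm38). Sequences are from RefSeq (GRCm38.p6). Reads carry no molecular identifiers, so counts show counting error only in part.

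The genes and lists were chosen with earlier results of these data known. Values in every library are given for genes whose genotypes do not overlap, the 8 of smallest p, and the highest per kilobase in each role. Other lists give members past the threshold, or else the 2 of smallest p (marker lists give called members and sums). Kit, Slamf1, Cd48, Cd34, Rrm2b, Lat2, Gm10143 and Pcna-ps2 were named after their values were seen.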

Additional observations from a re-analysis of the deposited data

Results flagged for a closer look

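In 7 of the 58 sets of 4 libraries formed by the 29 genes and the 2 genotypes, 1 library lay far from the other 3 by Dixon's ratio at its 95% critical value, where chance alone gives about 1 in 20. The genes share their libraries, so these are not independent. The ratio was taken for the 29 genes only, so no share over all genes can be set beside this count. In 5 of the 7 the library was DekCon 2, with a normalized read count of 403 for Pola2, 431 for Pold1, 579 for Rfc5, 371 for Rpa2 and 1166 for Tyms, each the highest of its group. DekCon 2 also held the highest value of 38.5% of the 7602 well-expressed genes. DekCon 3 was low for Pold4, at 49.0. DekTg 2 was high for Pole2, at 109.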

How the results depend on the processing

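None of the 29 genes and none of the 89 other DNA synthesis genes passed the threshold under any of the 25 alternatives, and the smallest adjusted p of the 29 was 0.317 (DESeq2, which gave an adjusted p to 18 of them). The median log2 fold change of the 29 stayed below 0, from -0.32 without DekTg replicate 2 to -0.14 with quantile normalization and, nearly the same, without DekCon replicate 2. Of the 29, 24 kept their sign throughout. With equal sums Prim2 turned to 0.0748 and Pole3 to 0.0069, and with quantile normalization to 0.0752 and 0.0142. Leaving out 1 library gave ranges of -0.145 to 0.149 for Prim2, -0.35 to 0.0412 for Pole2, -0.152 to 0.0695 for Pole3, -0.298 to 0.0128 for Rrm2 and -0.243 to 0.0109 for Tk1, each highest without DekCon replicate 2. Without DekTg replicate 1 or 4, Prim2 (0.0399, 0.0994) and Pole2 (0.0036, 0.0276) also turned. The cause of these changes was not tested. Leaving out 1 library moved 3 to 8 of the 29 by over 1.5 times without a change of sign, for each library but DekCon replicate 2, which moved 19. Genes that changed sign come on top of these counts. They were 5 without DekCon replicate 2 and 2 each without DekTg replicate 1 or 4.

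Over all genes the count past the threshold was 13, and 4 without limma's trend, 8 without the 6 genes holding values that are not whole, and 13 to 22 on leaving out 1 library, with 22 without DekTg replicate 2 (10 higher, 12 lower, against 10 and 3). DESeq2 called 14 (4 higher, 10 lower), or 8 higher and 6 lower without independent filtering, and edgeR 9 (8 and 1). The called markers of other cell types numbered 5, and 1 without the trend and 1 with DESeq2, against 6 with DESeq2 without independent filtering and 5 with edgeR. Over all genes tested, correlations of same-numbered libraries lay between -0.003 and 0.02, and those of other pairs between -0.053 and 0.054. Most of these genes are low in counts, so the correlations cannot decide whether replicate numbers pair the libraries. The summed proliferation markers ranked the replicate numbers in the same order in both genotypes. With the replicate number as a block 15 genes passed over all genes, 0 of the 29 passed, 11 of the 29 had an unadjusted p under 0.05, and the median of the 29 stayed at -0.24.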
